A study of Mus musculus with 92 samples.

Results

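The genes described here are replication-dependent histone genes, the copies that supply core and linker histones while DNA is being replicated. They were taken as genes whose symbol follows the clustered histone naming (Hist1h to Hist4h, or the newer H1f, H2ac, H2bc, H3c and H4c names, without variants such as H2afz). A gene also needed at least 10 converted reads summed over the 14 SLAM-seq libraries, where a converted read carries the T-to-C change that marks newly made RNA. Of 56953 gene IDs in the tables, 70 matched the names and 56 of these reached the threshold. The members were 5 linker histone H1 genes, 14 H2A, 14 H2B, 11 H3 and 12 H4 genes, of 6, 20, 19, 12 and 13 that matched. Hist1h4f lay just inside the threshold with 10 converted reads, and Hist1h4b and Hist2h2ab lay just outside it with 8 each. The members were thus chosen by their converted reads over all SLAM-seq libraries, so the level of converted reads is given below only as a description.

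Cells were mouse embryonic stem cells of the line B6, kept with LIF, PD0325901 and CHIR99021 in serum medium. Every line carried a homozygous dTAG, a degron: adding dTAG-13 leads to breakdown of the tagged protein. The genotypes were GabpadTAG/dTAG (the GABPA line), Gabpb1dTAG/dTAG (the GABPB1 line) and Gabpb1/b2dTAG/dTAG (the GABPB1/B2 line), so all DMSO controls carried the tag as well. GABPA is the ETS-family subunit that binds DNA, and GABPB1 and GABPB2 are its partner subunits. Polyadenylated RNA-seq covered 500 nM dTAG-13 and DMSO for 12 h in each line. SLAM-seq, with 500 µM 4-thiouridine as the label, covered the GABPA line with dTAG-13 for 1, 2, 4 and 12 h and DMSO groups labelled 1 h, 2-4 h and 12 h. The 2-4 h DMSO group served both the 2 h and the 4 h dTAG-13 group. Each of the 13 groups had 2 libraries, biological duplicates per the labels, and 26 of 92 labelled samples were analysed. The labels do not say whether a line is 1 clone.

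RNA-seq libraries held 16.0 M to 32.1 M expected counts, and SLAM-seq libraries held 11.5 M to 30.7 M reads, of which 0.937 M to 4.25 M were converted. The tag acts on protein, so the mRNA of the tagged gene is no check of the labels. Embryonic stem cell markers summed to between 10900 and 12452 TPM (a level per transcript length and library size) in the RNA-seq libraries. Markers of feeder fibroblasts summed to between 3.19 and 7.45 TPM, with Lum at 0, markers of early lineages to between 24.9 and 78.7 TPM, and 2-cell-like markers to between 0.42 and 17.3 TPM.

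Replication-dependent histone genes sit in clusters, lack introns and are transcribed mainly in S phase. Their mRNAs normally end in a stem-loop that is bound by SLBP and cut with the help of the U7 snRNP, instead of in a poly(A) tail. Both assays here selected polyadenylated RNA, so they read the polyadenylated part of these mRNAs. NPAT, switched on by cyclin E and CDK2, is the coactivator that these genes share, and NFY and OCT1 bind the CCAAT and octamer elements of many of their promoters. The Integrator complex, an RNA endonuclease in the title of this study, has also been linked to 3′ ends of non-polyadenylated transcripts.

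In the mm39 coordinates of the SLAM-seq tables, 46 members lay in a pair of clusters on chromosome 13, with 20 genes between 21900592 and 22227846 and 26 between 23715220 and 23948389. Another 7 lay on chromosome 3 between 96127677 and 96177448, 2 on chromosome 11 (Hist3h2ba and Hist3h2a) and 1 on chromosome 6 (Hist4h4). Promoters are printed for members that passed the test in at least 2 comparisons with DMSO and have an entry in the RefSeq table of build GRCm38.p6. Each runs from 250 bases before to 50 bases after the gene start, 5′ to 3′ on the gene's strand. Capitals mark the CCAAT box, the TATAAA element and the octamer ATTTGCAT on either strand. Hist1h2bc and Hist2h4 also passed in at least 2 comparisons and are named only. The printed promoters are those of Hist1h4i at chr13:22041313-22041612 (minus strand), Hist1h2ae at chr13:23571171-23571470 (minus), Hist1h2ag at chr13:22042900-22043199 (minus), Hist1h1c at chr13:23738557-23738856 (plus) and Hist1h1b at chr13:21780576-21780875 (minus).
Hist1h4i: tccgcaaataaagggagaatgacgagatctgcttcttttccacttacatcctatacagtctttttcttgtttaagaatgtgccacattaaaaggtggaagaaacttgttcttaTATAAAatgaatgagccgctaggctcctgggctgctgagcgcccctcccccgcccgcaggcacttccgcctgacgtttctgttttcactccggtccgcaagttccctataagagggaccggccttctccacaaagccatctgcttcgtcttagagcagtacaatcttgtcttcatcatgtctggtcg
Hist1h2ae: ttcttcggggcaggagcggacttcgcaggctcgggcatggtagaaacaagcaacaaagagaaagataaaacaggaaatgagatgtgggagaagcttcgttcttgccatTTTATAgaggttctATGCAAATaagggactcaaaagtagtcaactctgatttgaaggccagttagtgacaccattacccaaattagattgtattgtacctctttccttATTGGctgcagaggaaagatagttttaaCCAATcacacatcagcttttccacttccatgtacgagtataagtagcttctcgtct
Hist1h2ag: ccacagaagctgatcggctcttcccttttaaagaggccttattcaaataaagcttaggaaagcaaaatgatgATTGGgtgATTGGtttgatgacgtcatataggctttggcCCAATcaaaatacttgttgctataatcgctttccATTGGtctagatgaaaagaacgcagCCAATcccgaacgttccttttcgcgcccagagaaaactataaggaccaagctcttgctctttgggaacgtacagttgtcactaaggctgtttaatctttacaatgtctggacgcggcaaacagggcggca
Hist1h1c: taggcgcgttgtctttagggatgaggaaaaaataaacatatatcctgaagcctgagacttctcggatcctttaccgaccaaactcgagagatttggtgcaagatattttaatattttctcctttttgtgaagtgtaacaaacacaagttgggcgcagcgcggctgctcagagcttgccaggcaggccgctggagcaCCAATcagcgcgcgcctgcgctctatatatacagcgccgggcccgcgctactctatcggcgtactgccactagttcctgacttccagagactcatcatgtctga
Hist1h1b: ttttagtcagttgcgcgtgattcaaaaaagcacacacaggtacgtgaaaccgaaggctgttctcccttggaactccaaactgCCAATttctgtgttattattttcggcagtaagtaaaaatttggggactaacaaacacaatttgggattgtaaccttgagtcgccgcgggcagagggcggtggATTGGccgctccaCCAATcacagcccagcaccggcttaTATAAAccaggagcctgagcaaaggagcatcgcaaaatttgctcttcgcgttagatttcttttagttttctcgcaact

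The H4 promoter stood apart from the other 4 in these letters. Hist1h4i had no CCAAT, and its TATAAA began 137 bases before the start. Hist1h2ag had 5 CCAAT matches on both strands together, Hist1h2ae had 2 with an octamer 128 bases before the start, Hist1h1c had 1, and Hist1h1b had 3 with a TATAAA 28 bases before the start. In all, 49 members matched the table, with 50 promoters, among 32851 promoters of the same length. CCAAT was in 42 of the 50, or 84.0%, against 37.4% of all promoters. By family it was in 5 of 5 H1, 12 of 12 H2A, 13 of 13 H2B and 9 of 9 H3 promoters, but in 3 of 11 H4 promoters. TATAAA was in 58.0% against 13.6%, and the octamer in 24.0% against 1.74%, with all 12 matches in H2A and H2B promoters. Many H2A and H2B genes start close together on opposite strands, so their windows overlap and 1 match can count for both. The window of Hist1h2bg, at chr13:23571150-23571449, largely covers that of Hist1h2ae. These promoters are thus not all separate sequences. The ETS-type letters CCGGAAG were in 1 member promoter, or 2.0%, against 8.86% of all promoters, and the shorter core GGAA, part of CCGGAAG, was in 92.0% against 96.0%. These matches describe letters only.

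Levels in RNA-seq were low and uneven. Averaged over the 12 libraries, 15 members reached 5 TPM and 17 stayed under 1 TPM. Hist1h4i (an H4 gene) had the highest mean at 32.1 TPM, followed by Hist1h2ag at 24.7, Hist1h2bj at 14.5, Hist1h2bk and Hist1h3c at 14.1 each, Hist1h2ap at 11.4, Hist1h2ae at 7.28 and Hist1h4k at 7.25 TPM. That order changed between lines, as the plot of these 8 members shows. With DMSO, Hist1h4i averaged 34.9 TPM and Hist1h2ag 9.08 TPM in the GABPA line, but Hist1h2ag was the higher of the pair in the GABPB1 line (32.9 against 23.9 TPM).

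**Figure D1:**
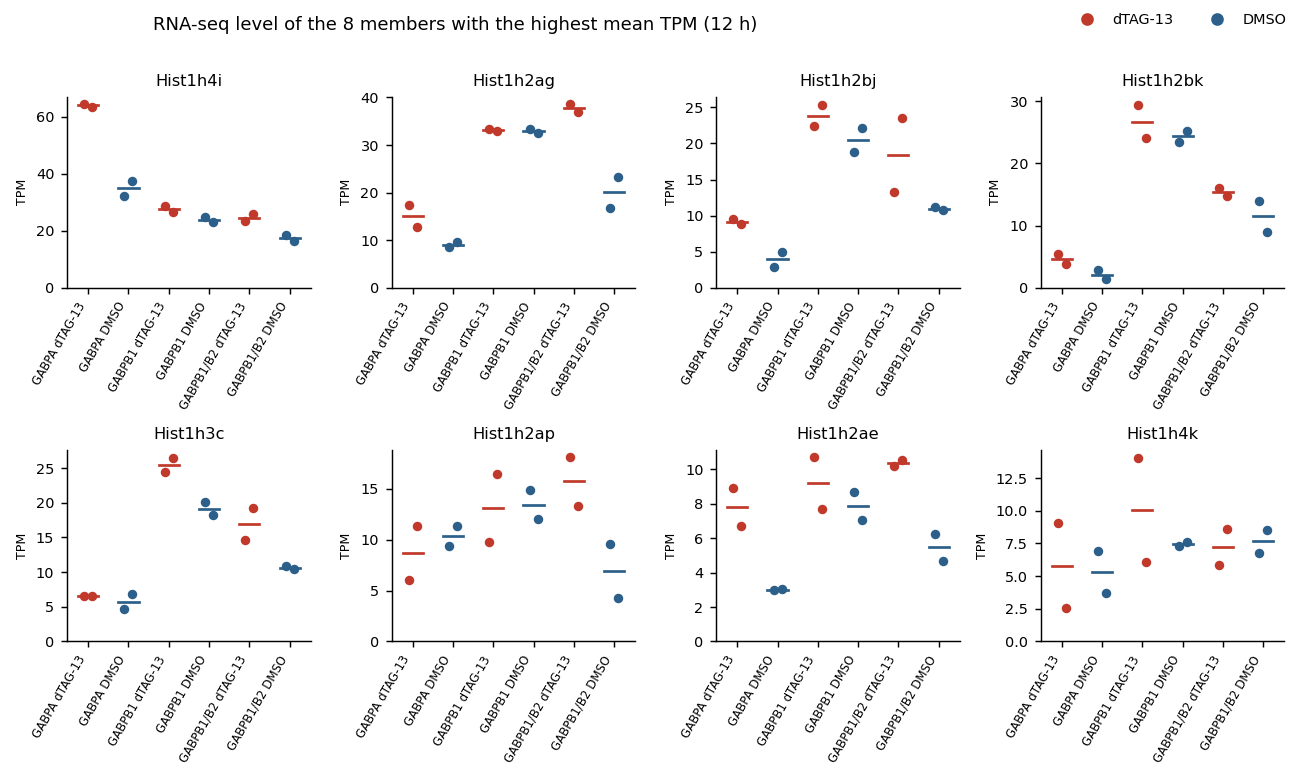
RNA-seq level in TPM of the 8 members with the highest mean, in each library (points) with the group mean (line), for dTAG-13 and DMSO in each line at 12 h. Hist1h4i is highest in the GABPA line, whereas Hist1h2bk and Hist1h3c are lowest there.

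Levels of some highly expressed copies differed between lines. Among DMSO libraries, Hist1h4i had 32.4 and 37.5 TPM in the GABPA line, 24.7 and 23.0 in the GABPB1 line, and 18.7 and 16.4 in the GABPB1/B2 line. Hist1h2bk, an H2B gene, had 2.95 and 1.35 TPM in the GABPA line, 23.5 and 25.2 in the GABPB1 line, and 14.02 and 9.04 in the GABPB1/B2 line. Hist1h3c, an H3 gene, had 4.64 and 6.84, 20.1 and 18.2, and 10.9 and 10.4 TPM in the same order of lines. Thus the GABPA line was highest for Hist1h4i and lowest for Hist1h2bk and Hist1h3c, with no overlap between lines for any of the 3. These genes were picked from the members with the highest mean TPM. The share of all members or of all genes without such overlap was not counted. The order of Hist1h4i was not that of its family: the H4 genes Hist1h4d and Hist1h4n were lowest in the GABPA line among DMSO libraries. Line and library preparation cannot be told apart here, and no test between lines was made.

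After 12 h of GABPA loss, 6 histone genes rose in RNA-seq and none fell. The risers were the H4 gene Hist1h4i, the H2A genes Hist1h2ae, Hist1h2ag and Hist3h2a and the H2B genes Hist1h2bc and Hist1h2bj. Their increases lay between 0.75 and 1.38 on the log2 scale, whereas no H1 or H3 gene passed the test. Their share was not above that of all genes. Only 37 of the 56 members had enough counts to be tested, and 6 of these 37 rose, beside 24.6% of the 16396 genes tested. No member fell, beside 21.9% of all genes tested. The median log2 fold change was 0.78 for the 37 members and 0.06 for all genes, and 29 of the 37 were above 0. By family it was 0.78 in 5 H1, 0.69 in 8 H2A, 1.11 in 9 H2B, 0.63 in 9 H3 and 0.30 in 6 H4 genes.

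Hist1h4i had 64.7 and 63.5 TPM with dTAG-13, against 32.4 and 37.5 TPM with DMSO. The groups did not overlap, and the log2 fold change was 0.90 ± 0.12 (SE, n = 2 libraries each; edgeR adjusted p = 7.48e-06). Hist1h2bc, an H2B gene, had 10.3 and 9.59 TPM with dTAG-13, against 4.64 and 4.45 TPM with DMSO, a log2 fold change of 1.15 ± 0.19 (edgeR adjusted p = 9.31e-05). Hist1h2ae, an H2A gene, had 8.93 and 6.68 TPM with dTAG-13, against 2.96 and 3.07 TPM with DMSO, a log2 fold change of 1.38 ± 0.30 (edgeR adjusted p = 0.00104). In each of the 3 genes both dTAG-13 libraries were above both DMSO libraries.

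Hist1h2ag and Hist1h2bj are an H2A and an H2B gene whose annotated starts lie 270 bases apart on opposite strands. Hist1h2ag had 17.4 and 12.8 TPM with dTAG-13, against 8.54 and 9.61 TPM with DMSO (log2 fold change 0.75 ± 0.24, edgeR adjusted p = 0.0155). Hist1h2bj had 9.47 and 8.83 TPM with dTAG-13, against 2.91 and 5.01 TPM with DMSO (log2 fold change 1.19 ± 0.39, edgeR adjusted p = 0.0184). Both pairs of groups were separate, but these calls were less firm than the ones before. Without dTAG-13 replicate 1 only 3 members rose, and the values were 0.50 for Hist1h2ag (edgeR adjusted p = 0.186) and 1.13 for Hist1h2bj (edgeR adjusted p = 0.0741). Without DMSO replicate 1 they were 0.66 (edgeR adjusted p = 0.0859) and 0.87 (edgeR adjusted p = 0.142). Hist3h2a, named after its values were seen as the sixth call, had 2.43 and 2.48 TPM with dTAG-13, against 1.36 and 1.07 TPM with DMSO, a log2 fold change of 1.05 ± 0.34 (edgeR adjusted p = 0.0187). It missed the threshold without dTAG-13 replicate 1, dTAG-13 replicate 2 or DMSO replicate 2 (edgeR adjusted p = 0.0535, 0.066 and 0.135). Its interval overlaps Trim17 on the same strand, so reads of the pair could be mixed.

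The remaining highly expressed members gave no call in the GABPA line. Hist1h2bk had 5.48 and 3.89 TPM with dTAG-13, against 2.95 and 1.35 TPM with DMSO, a log2 fold change of 1.15 ± 0.48 (edgeR adjusted p = 0.0614). Hist1h3c had a log2 fold change of 0.19 ± 0.27, and Hist1h2ap, whose SLAM-seq reads were 98.8% multimapped and which cannot be told from near-identical copies, had −0.24 ± 0.41 (edgeR adjusted p = 0.591 and 0.677). Hist1h4k lacked the counts for a test.

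Summed over all 56 members, which needs no filter, CPM (counts scaled to library size) were 72.8 and 68.3 with dTAG-13, against 40.7 and 45.6 with DMSO, a ratio of 1.64. By family the ratio of means was 1.33 for H1, 1.54 for H2A, 2.03 for H2B, 1.39 for H3 and 1.69 for H4. H2B sums were 14.6 and 14.2 CPM with dTAG-13, against 7.55 and 6.62 CPM with DMSO, while H3 sums were 7.74 and 6.72 CPM with dTAG-13, against 3.98 and 6.42 CPM with DMSO. The H4 difference lay in 1 gene: without Hist1h4i, H4 summed to 4.52 and 3.83 CPM with dTAG-13, against 4.10 and 3.56 CPM with DMSO. An exact permutation test of 2 against 2 libraries cannot give a two-sided p below 0.333, so sums carry no test. These sums read only polyadenylated RNA, so total histone mRNA was not measured. In whole cultures, more cells in S phase, more histone mRNA per cell and a larger polyadenylated part of it cannot be told apart. Feeder fibroblast markers summed to 3.52 to 3.80 TPM with dTAG-13, against 3.19 to 3.57 TPM with DMSO, and 2 of 4 tested rose. Their part in the histone result was not tested.

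Loss of GABPB1 alone gave no call among the members. In edgeR 0 of 37 tested members rose, beside 1.28% of all genes, and 0 fell, beside 5.46% (6.75% in either direction). The number with an unadjusted p under 0.05 was 5, and DESeq2 also called 0. The smallest p belonged to Hist1h1e, a linker histone gene, with 0.48 and 0.45 TPM in dTAG-13 libraries, against 0.16 and 0.06 TPM in DMSO libraries, a log2 fold change of 2.03 ± 0.61 (edgeR adjusted p = 0.0605). Its interval overlaps that of Hist1h2be on the same strand, which makes its count uncertain. Hist2h3c2, an H3 gene, had 0 expected counts in both dTAG-13 libraries, against 5.06 and 11.3 in the DMSO libraries (edgeR adjusted p = 0.0646). Hist1h2bc had a log2 fold change of 0.49 ± 0.19 (edgeR adjusted p = 0.165). Among the members with the highest levels, Hist1h4i had 28.7 and 26.6 TPM with dTAG-13, against 24.7 and 23.0 TPM with DMSO (0.18 ± 0.12, edgeR adjusted p = 0.485). Hist1h2ag had 33.5 and 33.0 TPM with dTAG-13, against 33.3 and 32.5 TPM with DMSO (−0.01 ± 0.17, edgeR adjusted p = 0.984). Hist1h3c had 24.5 and 26.5 TPM with dTAG-13, against 20.1 and 18.2 TPM with DMSO (0.38 ± 0.18, edgeR adjusted p = 0.251). None of the 3 passed the test. The groups of Hist1h4i and Hist1h3c did not overlap, but separate groups of 2 libraries each do not stand in for a test. The sum over all members was 57.7 and 59.0 CPM with dTAG-13, against 51.4 and 48.8 CPM with DMSO, a ratio of 1.16.

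When GABPB1 and GABPB2 were lost together, 2 H2A genes rose and no member fell. Of the 37 members tested 2 rose, beside 3.53% of all genes, and 0 fell, beside 9.26%. Hist1h2ag had 38.7 and 36.9 TPM with dTAG-13, against 16.7 and 23.4 TPM with DMSO, a log2 fold change of 0.87 ± 0.19 (edgeR adjusted p = 0.00523). Hist1h2ae had 10.2 and 10.52 TPM with dTAG-13, against 6.23 and 4.68 TPM with DMSO, a log2 fold change of 0.86 ± 0.26 (edgeR adjusted p = 0.0415). Both genes also rose in the GABPA line, and in both lines the treated libraries stood above the controls. Hist1h4i had 23.3 and 25.95 TPM with dTAG-13, against 18.7 and 16.4 TPM with DMSO, a log2 fold change of 0.44 ± 0.14 (edgeR adjusted p = 0.055). Hist1h3c had 14.6 and 19.3 TPM with dTAG-13, against 10.9 and 10.4 TPM with DMSO, a log2 fold change of 0.61 ± 0.21 (edgeR adjusted p = 0.0771). These last 2 genes did not pass the test, and separate groups of 2 libraries each do not stand in for one. Hist1h2ap had 0.99 ± 0.40 and Hist1h2bj 0.64 ± 0.30 (edgeR adjusted p = 0.128 and 0.204). The count of 2 depended on single libraries: leaving out the first or the second dTAG-13 library gave 0 or 1, leaving out DMSO replicate 1 gave 4, leaving out DMSO replicate 2 gave 1, and DESeq2 called 1. Summed over all members, CPM were 56.2 and 56.7 with dTAG-13, against 41.8 and 37.5 with DMSO, a ratio of 1.42.

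The responses of the lines were also compared directly. Compared with the GABPB1 line, the GABPA line responded with a larger log2 fold change in 2 of 37 members, beside 12.5% of all genes, and with a smaller one in 0, beside 13.3%. For Hist1h4i the difference in log2 fold change was 0.72 ± 0.17 (edgeR adjusted p = 0.00451), with 0.90 ± 0.12 in the GABPA line and 0.18 ± 0.12 in the GABPB1 line. For Hist1h2ae it was 1.20 ± 0.38 (edgeR adjusted p = 0.0283), with 1.38 ± 0.30 and 0.18 ± 0.24. Hist1h2ae lost the call in DESeq2 (adjusted p = 0.0716) and without GABPA dTAG-13 replicate 1 (0.98, edgeR adjusted p = 0.118), either GABPA DMSO library, GABPB1 dTAG-13 replicate 2 (0.92, edgeR adjusted p = 0.142) or GABPB1 DMSO replicate 1 (0.99, edgeR adjusted p = 0.136). Against the GABPB1/B2 line, 0 of 37 members differed in either direction by edgeR, beside 10.1% and 10.7% of all genes (20.7% together). There 4 had an unadjusted p under 0.05 and DESeq2 called 0, and the difference for Hist1h4i was 0.46 ± 0.18 (edgeR adjusted p = 0.0923).

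**Figure D2:**
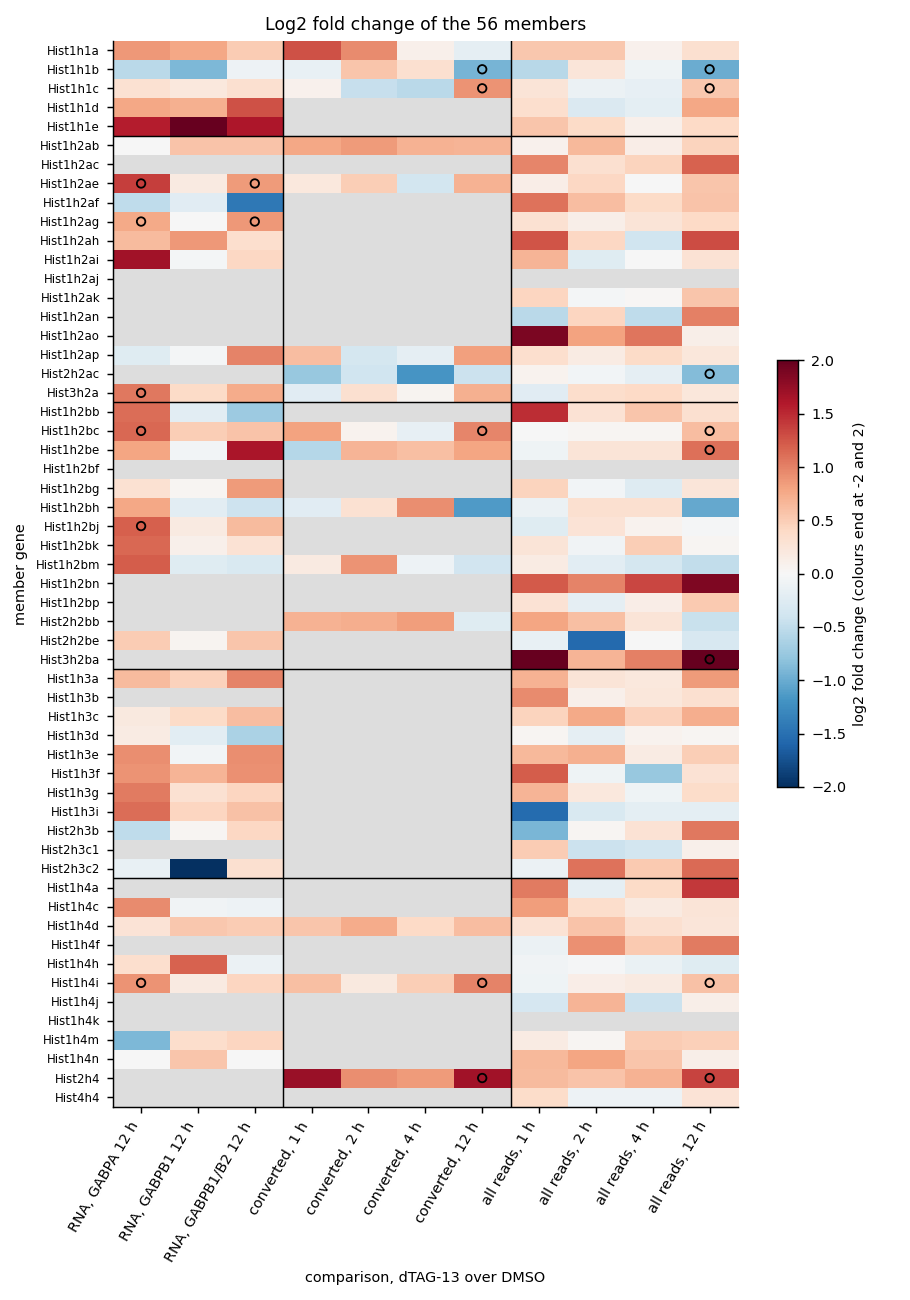
Log2 fold change of dTAG-13 over DMSO for the 56 members (rows, H1 to H4 from top to bottom, families parted by lines) in RNA-seq of 3 lines and in converted and all SLAM-seq reads of the GABPA line (columns); rings mark an edgeR adjusted p under 0.05, and grey marks members without enough counts for a test. Rings stand only in the GABPA and GABPB1/B2 columns of RNA-seq and in the 12 h columns of SLAM-seq.

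In newly made RNA, none of the 16 members that could be tested passed the test within the first 4 h of GABPA loss. Of the 56 members 16 had enough converted reads to be tested: 3 H1, 5 H2A, 5 H2B, 3 H4 and no H3 genes. At 1, 2 and 4 h edgeR and DESeq2 called 0 of these 16, and 0 had an unadjusted p under 0.05. Among all 15887 genes tested, 0.0567% rose and 1.72% fell at 1 h (1.78% together), 0.145% and 3.21% at 2 h (3.35%), and 0.113% and 3.91% at 4 h (4.02%). At 1 h the smallest p belonged to Hist2h4, an H4 gene, with 10.0 and 6.30 converted CPM after dTAG-13, against 2.16 and 2.67 after DMSO (log2 fold change 1.73 ± 1.02, edgeR adjusted p = 0.585). Hist1h2bc and Hist1h4i followed, with log2 fold changes of 0.80 ± 0.53 and 0.60 ± 0.43. At 2 h the smallest p belonged to Hist1h1b, with 44.8 and 29.2 converted CPM after dTAG-13, against 20.9 and 29.6 after DMSO (0.56 ± 0.28, edgeR adjusted p = 0.429). The groups overlapped, and Hist1h4d (0.74 ± 0.39) and Hist1h1c (−0.46 ± 0.30) came next. Hist1h4d was called higher at 2 h without the low-count filter (0.71, edgeR adjusted p = 0.0293) and without DMSO replicate 1 (1.56, edgeR adjusted p = 0.0404). At 4 h it belonged to Hist2h2ac, an H2A gene with 4.93 and 2.93 converted CPM after dTAG-13, against 8.81 and 8.67 after DMSO (−1.18 ± 0.58, edgeR adjusted p = 0.373). Hist1h1c (−0.53 ± 0.31) and Hist1h4i (0.49 ± 0.33) came next.

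Sums in that window differed between replicates and, less, between treatments. Converted CPM summed over all members was 252 and 326 at 1 h with dTAG-13, against 294 and 205 with DMSO. It was 552 and 319 at 2 h with dTAG-13 and 458 and 272 at 4 h with dTAG-13, against 414 and 244 in the shared DMSO group. In each of these 3 groups replicate 1 was 1.68 to 1.73 times replicate 2. Between libraries of the same number, dTAG-13 over DMSO was 1.33 and 1.31 at 2 h and 1.11 and 1.11 at 4 h, and at 1 h it was 0.857 and 1.59. Most of that split was in core histones, since H1 sums were 79.1 and 52.8 at 2 h and 64.1 and 49.7 at 4 h with dTAG-13, against 58.4 and 59.2 with DMSO.

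**Figure D3:**
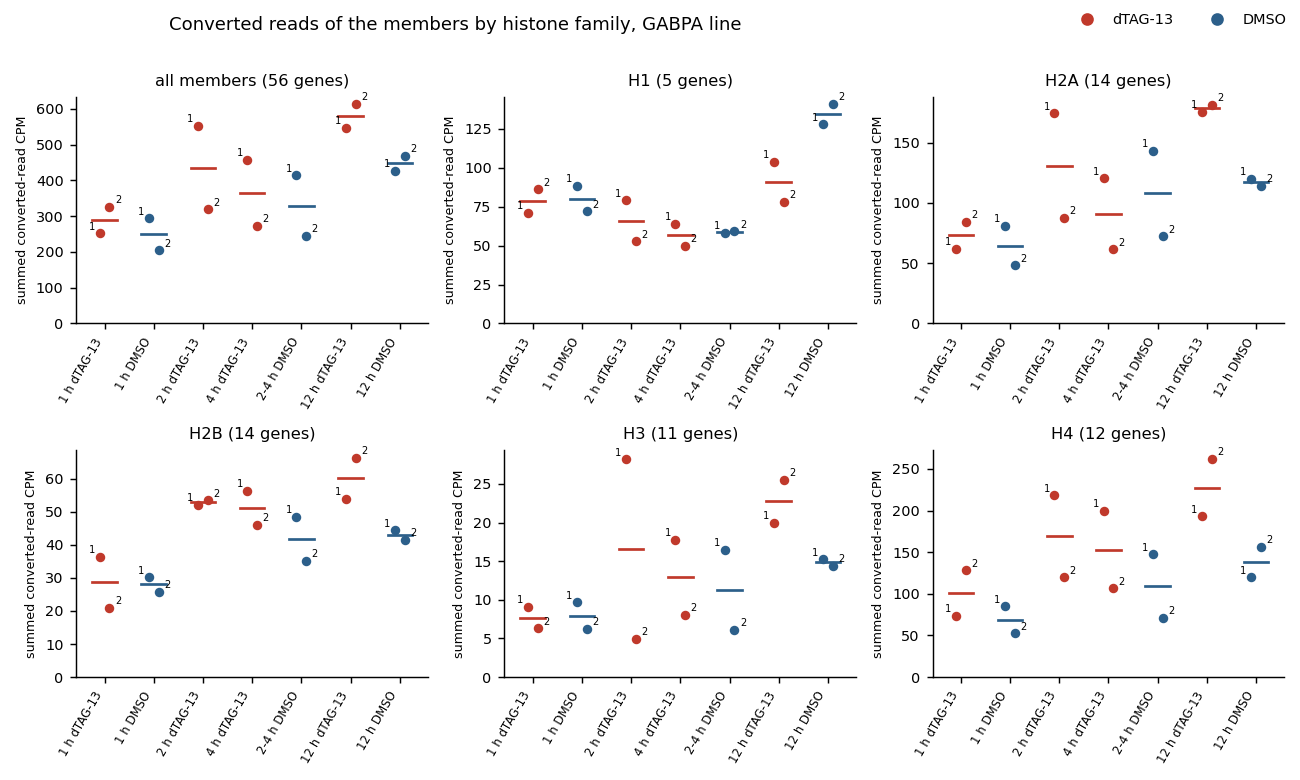
Converted-read CPM summed over all members and over each histone family, in each SLAM-seq library of the GABPA line (points, numbered by replicate) with the group mean (line), for dTAG-13 and DMSO. For all members replicate 1 lies above replicate 2 in the 2 h, 4 h and shared DMSO groups, and the H1 panel alone has 12 h dTAG-13 below DMSO.

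After 12 h of GABPA loss, newly made RNA of 4 histone genes rose and that of 1 fell. The risers were the H4 genes Hist1h4i and Hist2h4, the H2B gene Hist1h2bc and the linker histone gene Hist1h1c, while the linker histone gene Hist1h1b fell. Of the 16 members tested, 4 rose, beside 12.3% of all genes, and 1 fell, beside 18.3% (30.6% together). Hist1h4i and Hist1h2bc had also risen in RNA-seq. Hist1h2ae, another riser in RNA-seq, had a log2 fold change of 0.70 here, and no H2A gene was called. Hist1h2ag and Hist1h2bj lacked the converted reads for a test.

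Hist1h4i had 31.8 and 36.3 converted CPM with dTAG-13, against 15.7 and 18.04 with DMSO (log2 fold change 1.00 ± 0.29, edgeR adjusted p = 0.011). Hist1h2bc had 22.1 and 29.5 converted CPM with dTAG-13, against 17.1 and 8.57 with DMSO (0.98 ± 0.31, edgeR adjusted p = 0.0204). In both genes the lower dTAG-13 library was above the higher DMSO library. Hist2h4 had 16.1 and 26.6 converted CPM with dTAG-13, against 4.62 and 8.12 with DMSO (1.69 ± 0.58, edgeR adjusted p = 0.0304). Hist1h1c had 15.9 and 18.7 converted CPM with dTAG-13, against 9.24 and 9.02 with DMSO (0.90 ± 0.31, edgeR adjusted p = 0.0326). Both again showed no overlap.

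Hist1h1b encodes the linker histone H1.5. It had 66.4 and 42.5 converted CPM with dTAG-13, against 96.6 and 117 with DMSO, and fell by 0.94 ± 0.22 on the log2 scale (edgeR adjusted p = 0.00259). Both treated libraries were below both controls. Its DMSO level varied with time, at 70.1 ± 12.1 converted CPM at 1 h, 25.2 ± 6.12 at 2-4 h and 107 ± 14.6 at 12 h (SD, n = 2 each), which was not tested.

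These calls rested on 2 libraries a group. DESeq2 called 1 riser (Hist1h4i) and Hist1h1b as falling. The count of risers was 1 without DMSO replicate 1, 1 without DMSO replicate 2 and 1 without dTAG-13 replicate 2. Hist1h1b missed the threshold without DMSO replicate 2 (−0.78, edgeR adjusted p = 0.0533) and without dTAG-13 replicate 2 (−0.63, edgeR adjusted p = 0.0712), as did Hist1h2bc, Hist2h4 and Hist1h1c. Hist1h4i missed it without DMSO replicate 1 (0.95, edgeR adjusted p = 0.0852).

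**Figure D4:**
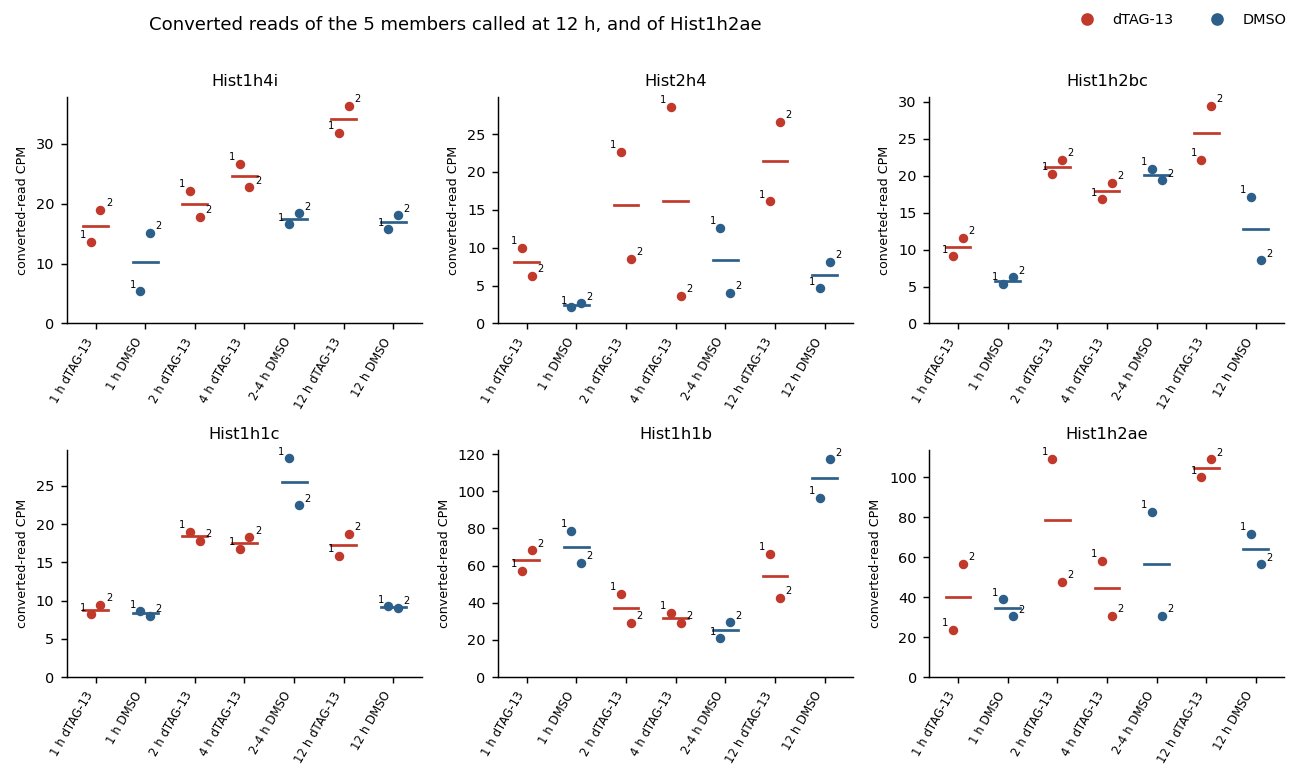
Converted-read CPM in each SLAM-seq library of the GABPA line (points, numbered by replicate) with the group mean (line) for the 5 members that passed the test at 12 h and for Hist1h2ae, for dTAG-13 and DMSO. At 12 h the treated libraries lie above the controls in Hist1h4i, Hist2h4, Hist1h2bc, Hist1h1c and Hist1h2ae, and below them in Hist1h1b.

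Sums of converted reads at 12 h were higher for core histones and lower for linker histones, without a test. Core histone genes summed to 443 and 535 CPM with dTAG-13, against 299 and 327 CPM with DMSO, a ratio of 1.56. H1 genes summed to 104 and 78.2 CPM with dTAG-13, against 128 and 141 CPM with DMSO, a ratio of 0.677. Without Hist1h1b the other 4 H1 genes summed to 37.5 and 35.7 CPM with dTAG-13, against 31.4 and 23.9 CPM with DMSO, so the H1 difference was that of Hist1h1b. The 12 h response was also set against the 1 h response. In edgeR 0 of 16 members differed, beside 2.14% of genes higher and 4.70% lower, with 1 unadjusted p under 0.05 (Hist1h1b, −0.78 ± 0.35) and 0 calls by DESeq2.

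All SLAM-seq reads, converted or not, allowed 53 of the 56 members to be tested. At 12 h 6 rose, beside 29.8% of the 26957 genes tested, and 2 fell, beside 27.6% (57.4% together). Hist1h4i, Hist1h2bc, Hist1h1c and Hist2h4 were called higher here too. Their log2 fold changes were 0.59 ± 0.18, 0.61 ± 0.20, 0.54 ± 0.22 and 1.34 ± 0.46 (edgeR adjusted p = 0.0117, 0.0163, 0.0412 and 0.0204). These reads include the converted reads, so the calls are not independent of those above. Hist1h4i lost the call without the low-count filter (0.52, edgeR adjusted p = 0.0558). With 1 library left out, Hist1h4i had 0.45 to 0.63, Hist1h2bc 0.38 to 0.83 and Hist2h4 0.81 to 1.68. The H2B gene Hist1h2be had 3.57 and 4.04 CPM with dTAG-13, against 1.90 and 1.63 with DMSO (1.10 ± 0.27, edgeR adjusted p = 0.00303), on an interval of 37455 bases that overlaps Hist1h1e. Hist3h2ba, also an H2B gene, had 26 and 10 reads with dTAG-13, against 0 and 2 with DMSO (edgeR adjusted p = 0.0245). Of its 12 converted reads, 4 and 2 came from these dTAG-13 libraries, and without them it would have missed the threshold for members. Its call is thus given as a value only. Its log2 fold change was 2.34 to 6.62 with 1 library left out. Hist1h1b fell by 0.99 ± 0.24, and Hist2h2ac had 4.41 and 3.74 CPM with dTAG-13, against 6.17 and 8.87 with DMSO, and fell by 0.87 ± 0.28 on the log2 scale (edgeR adjusted p = 0.00243 and 0.0143).

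Several properties of whole libraries moved with the 12 h treatment in these reads. The median log2 fold change of all genes was 0.14, and 0.55 without the filter on low counts, against 0.36 and 0.26 for the members. Multimapped reads made up 7.20% and 9.06% of reads with dTAG-13, against 3.92% and 4.55% with DMSO. Among members other than Hist1h2ap these shares were 0.156% and 0.634% with dTAG-13, against 0.156% and 0.137% with DMSO. Embryonic stem cell markers summed to 6107 and 6119 CPM with dTAG-13, against 8814 and 8422 with DMSO. Of the 10 tested, 1 rose and 4 fell. Feeder fibroblast markers summed to 15.0 and 24.3 CPM with dTAG-13, against 6.72 and 5.48 with DMSO, and 5 of 9 tested rose. For 2-cell-like markers the sums were 3.07 and 2.17 CPM with dTAG-13, against 0.136 and 1.24 with DMSO, with 2 of 7 higher, and for early lineage markers they were 48.6 and 28.7, against 43.6 and 45.9. Their part in the histone result was not tested. Leaving out 1 library gave 2 to 5 risers: 3 without DMSO replicate 1, 2 without DMSO replicate 2 and 2 without dTAG-13 replicate 1. Hist1h1c, named as the sixth riser after its values were seen, had an adjusted p of 0.372 by edgeR without DMSO replicate 2 and of 0.126 by DESeq2. At 1, 2 and 4 h edgeR and DESeq2 called 0 of 53 in these reads. Unadjusted p was under 0.05 for 1, 1 and 0 members. At 1 h 0% of all genes rose and 0.00371% fell, at 2 h 0.00371% rose and 0.211% fell (0.215% together), and at 4 h 0.0334% rose and 2.1% fell (2.13% together).

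RNA-seq and SLAM-seq weighted the members differently. Hist1h4d, Hist1h1b and Hist1h2ae together held 49.6% of all SLAM-seq reads of the members, but 6.44% of their RNA-seq counts. Of these, Hist1h2ae was high in both assays, at rank 7 by mean TPM and rank 3 by all-read CPM per kilobase. Hist1h4d alone, an H4 gene, held 27.1% of the SLAM-seq reads and had a mean of 1.55 TPM in RNA-seq. Conversely Hist1h4i held 18.5% of the RNA-seq counts and 5.32% of the SLAM-seq reads. Per kilobase, the rank correlation of the levels in both assays was 0.54 across the 56 members, which share libraries and sequence composition. The SLAM-seq libraries were made from 3′ ends, per the labels, and the GABPB1 and GABPB1/B2 lines entered the RNA-seq mean only.

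**Figure D5:**
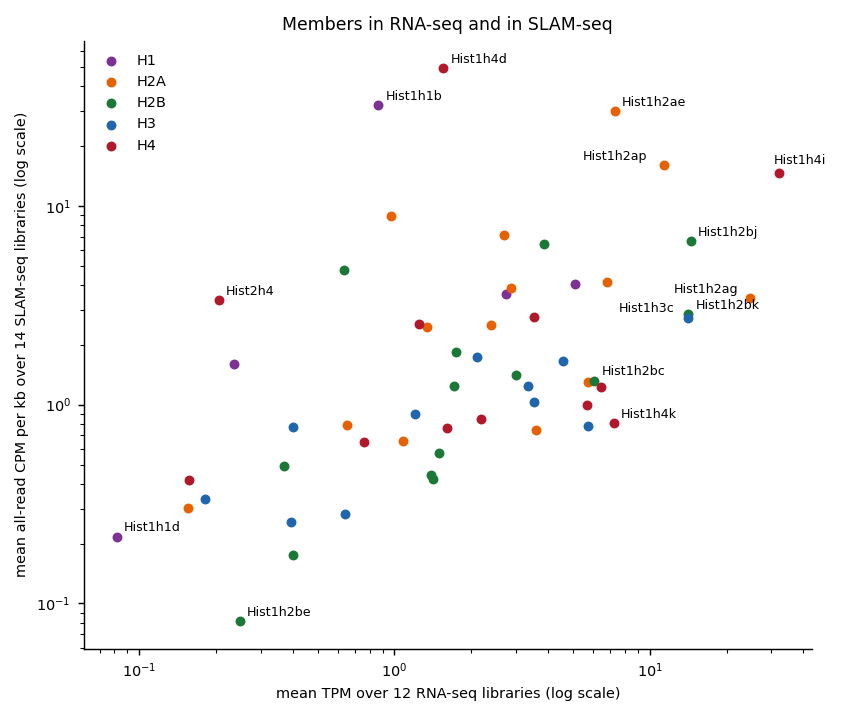
Mean SLAM-seq level (all-read CPM per kb of gene interval over 14 libraries) against mean RNA-seq level (TPM over 12 libraries) of the 56 members, both on log scales and coloured by family. Hist1h4d and Hist1h1b stand at the top with under 2 TPM, and Hist1h4i is farthest to the right.

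Histone reads carried conversions more often than other reads. At 12 h 26.6% and 23.8% of the members' reads were converted with dTAG-13, against 28.2% and 27.8% with DMSO. Over all genes the shares were 13.8% and 12.1% with dTAG-13, against 14.1% and 13.99% with DMSO. At 1 h the members had 11.7% and 10.9% with dTAG-13, against 11.03% and 11.3% with DMSO, where all genes had 5.46% and 5.06%, against 5.44% and 6.08%. The members' share was thus 1.49 to 2.16 times that of all reads over the 14 libraries, a description since converted reads chose the members.

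Several members are arranged head to head. There were 8 pairs of an H2A and an H2B gene and 1 of an H2B and an H3 gene that start on opposite strands between 176 and 660 bases apart. In RNA-seq of the GABPA line the partners Hist1h2ag and Hist1h2bj both rose. In all SLAM-seq reads at 12 h their log2 fold changes were 0.39 and −0.03, and neither passed the test. Hist1h2ae rose by 1.38 on the log2 scale, beside 0.31 in its partner Hist1h2bg, which did not pass the test. Hist1h2bc rose by 1.15, and its partner Hist1h2ac was too low to test. In the annotation 19 members overlap another gene, 6 of them on the same strand, and all 14 H2A members overlap a gene on the opposite strand. The sources used here do not state whether counting used strand, which leaves reads of such genes uncertain.

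Among genes listed for 3′ end processing, not all of them specific to histone mRNA, more fell than rose when GABPA was lost. Of 28 genes of 3′ end processing tested in RNA-seq at 12 h, 4 rose and 14 fell, beside the 24.6% and 21.9% of all genes given above, and the median log2 fold change was −0.17, beside 0.06 for all genes. Slbp, whose product binds the stem-loop, had 95.3 and 102 CPM with dTAG-13, against 169 and 158 CPM with DMSO (−0.73 ± 0.07, edgeR adjusted p = 2.26e-07). The Sm protein gene Snrpb fell by 1.66 ± 0.07, the cleavage stimulation factor Cstf2 by 1.36 ± 0.08, Snrpe by 1.32 ± 0.11 and Cpsf3, an endonuclease that cuts histone pre-mRNA, by 0.79 ± 0.06. Cstf1, Wdr33, Sympk and Ncbp2 rose by 0.19 to 0.28. In converted reads at 12 h, 1 of the 28 rose and 13 fell, beside 12.3% and 18.3% of all genes, and Slbp fell by 1.64 ± 0.17 (edgeR adjusted p = 1.06e-07).

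Of 16 genes of histone gene transcription, 3 rose and 7 fell in RNA-seq, beside 24.6% and 21.9% of all genes. Npat, the shared coactivator, had 22.5 and 24.5 CPM with dTAG-13, against 40.1 and 40.6 CPM with DMSO (−0.78 ± 0.10, edgeR adjusted p = 1.04e-05). Cyclin E gene Ccne1 fell by 0.80 ± 0.06, its kinase Cdk2 by 0.46 ± 0.07 and Ccne2 by 0.49 ± 0.15. Nfyb, a subunit of the CCAAT-binding factor, rose by 0.74 ± 0.08, Sp1 by 0.48 ± 0.07 and Pou2f1, which encodes OCT1, by 0.45 ± 0.10. Of 16 genes of histone mRNA decay, 3 rose and 6 fell, beside the same shares of all genes. The Lsm ring genes Lsm2 and Lsm1 fell by 1.06 ± 0.09 and 0.77 ± 0.08, and the uridylyl transferase gene Tut7 by 0.60 ± 0.09. Lsm4, the exonuclease gene Xrn1 and Tut4 rose by 0.90 ± 0.10, 0.53 ± 0.10 and 0.32 ± 0.09.

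Among histone chaperones and S phase genes more fell than rose, while variant histones were split. Over all genes 24.6% rose and 21.9% fell in RNA-seq, and 12.3% rose and 18.3% fell in converted reads with a median of 0.04. Of 26 chaperone genes 1 rose (Dnajc9, 0.50 ± 0.07) and 14 fell, among them the histone importer Ipo4 (−2.43 ± 0.07), the FACT subunit Supt16 (−0.70 ± 0.06), Nasp (−0.71 ± 0.06) and the CAF-1 subunit Chaf1b (−0.64 ± 0.06). Of 49 S phase genes 2 rose and 33 fell in RNA-seq, with a median of −0.33. The clamp loader genes Rfc3 and Rfc2 fell by 2.31 ± 0.10 and 1.99 ± 0.07, the thymidylate synthase gene Tyms by 1.98 ± 0.08 and the primase gene Prim2 by 1.84 ± 0.09, while Pole and Pold2, which encode DNA polymerase subunits, rose by 0.25 ± 0.07 and 0.21 ± 0.08. For S phase genes 0 rose and 34 fell in converted reads, with a median of −0.78. Of 11 replication-independent histone genes, 3 rose and 4 fell. H2afj had 261 and 217 CPM with dTAG-13, against 126 and 124 CPM with DMSO (0.93 ± 0.12, edgeR adjusted p = 7.43e-06), whereas H2afz fell by 0.29 ± 0.05 and H2afy by 0.44 ± 0.08. Of 16 Integrator genes 1 rose and 4 fell in RNA-seq, a share of falls close to that of all genes. Ints10 rose by 0.25 ± 0.07, and Ints12, the endonuclease gene Ints11, Ints5 and Nabp2 fell by 1.42 ± 0.10, 0.94 ± 0.07, 0.56 ± 0.07 and 0.46 ± 0.09. In converted reads at 12 h 0 of the 16 rose and 3 fell. In all SLAM-seq reads at 12 h 0 rose and 12 fell, beside 29.8% and 27.6% of all genes. The median there was −0.78, beside 0.14 for all genes.

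Loss of the GABPB subunits gave fewer calls in these lists and over all genes, of which 12.8% were called in the GABPB1/B2 line and 6.75% in the GABPB1 line, against 46.5% in the GABPA line. In the GABPB1/B2 line 3.53% of all genes rose and 9.26% fell. Of 28 processing genes 0 rose and 6 fell there, and of 16 transcription genes 0 changed. Of 16 decay genes 1 rose and 4 fell, and of 26 chaperones 0 rose and 6 fell. Of 49 S phase genes 1 rose and 10 fell, and of 16 Integrator genes 0 rose and 2 fell. In the GABPB1 line 1.28% of all genes rose and 5.46% fell. Falls there numbered 3, 0, 2, 2, 8 and 1 in the same order of lists, with no riser. The difference between lines was not tested for these lists.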

How the data were processed

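Expected counts and TPM per gene were deposited by the authors for RNA-seq, and read counts, converted-read counts and multimapped counts per gene interval for SLAM-seq. The submitters' processing notes name RSEM 1.3.1, STAR 2.7.11a, slamdunk 0.4.3 and DESeq2 1.44.0. Per the file headers and labels, SLAM-seq intervals are GENCODE genes on mm39. Expected counts were rounded to whole numbers here. Each table was fitted whole with edgeR 4.0.16 (quasi-likelihood test, TMM, filterByExpr with a minimum count of 10 and a minimum total of 15) in R 4.3.3, with all libraries of an assay in 1 fit. P-values were adjusted by Benjamini-Hochberg over all genes tested, and adjusted p under 0.05 was called. There were 14 comparisons, 3 of them differences between responses. Standard errors came from the log2 fold change and its F statistic. CPM were scaled by TMM library sizes. The scripts were tested on simulated data.

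Replicates differed by more than sampling noise: chi-square per degree of freedom was 2.96 to 14.6 in RNA-seq, 1.87 to 4.69 in converted reads and 5.01 to 27.3 in all reads. The members and lists were chosen with earlier results of these data known. Named members are the 8 with the highest mean TPM, those beside the read threshold and, per comparison, up to 5 called in each direction or, with none called, the 3 with the smallest p. Named list genes are up to 4 called per direction at 12 h in the GABPA line. Of 92 labelled samples, 66 were not used here. DESeq2 1.42.0, other size factors, no filter, fewer libraries, a replicate block and leaving out libraries were tried as alternatives.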

Additional observations from a re-analysis of the deposited data

Results flagged for a closer look

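In an edgeR test of the difference itself, 2 of 37 members rose more with dTAG-13 in the GABPA than the GABPB1 line. Beside them, 12.5% of all genes had a larger and 13.3% a smaller log2 fold change in the GABPA line (25.7% together). The share of members was thus not above that of all genes. For Hist1h4i the difference in log2 fold change was 0.72 ± 0.17 (edgeR adjusted p = 0.00451). In the GABPA line it had 64.7 and 63.5 TPM with dTAG-13, against 32.4 and 37.5 TPM with DMSO, and in the GABPB1 line 28.7 and 26.6 TPM with dTAG-13, against 24.7 and 23.0 TPM with DMSO. For Hist1h2ae the difference was 1.20 ± 0.38 (edgeR adjusted p = 0.0283). That call was lost in DESeq2 (adjusted p = 0.0716) and in edgeR on leaving out any of 5 libraries (adjusted p between 0.0784 and 0.142). In the GABPA line it had 8.93 and 6.68 TPM with dTAG-13, against 2.96 and 3.07 TPM with DMSO, and in the GABPB1 line 10.7 and 7.66 TPM with dTAG-13, against 8.70 and 7.07 TPM with DMSO.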

How the results depend on the processing

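Of 319 alternative values for counts and sums, 286 stayed close to the value given and 33 moved. Close meant within 1.5 times for a count, and within the SD of replicates on the log2 scale for a sum. Of 686 for named genes, 626 kept their side of the threshold, 47 lost the call and 13 gained one. No change of direction involved a call, but genes without a call could change sign. Hist1h2ap in RNA-seq of the GABPA line ran from −0.755 to 0.132 with 1 library left out, and Hist1h3c from −0.0497 to 0.517. In RNA-seq the GABPB1 line had 1 riser with only the libraries of the comparison, and 1 faller without the low-count filter and 1 with the replicate block. The GABPB1/B2 line had 1 riser by DESeq2, 4 without the filter and 1 with only its own libraries. Between the GABPA and GABPB1/B2 lines 1 member was lower without the filter, and between the GABPA and GABPB1 lines 1 was higher by DESeq2. In converted reads 1 member rose at 2 h without the filter, 1 rose at 12 h by DESeq2, and 1 was higher at 12 h than at 1 h without the filter. Leaving out 1 library at a time gave 3 to 7 risers in the GABPA line, 0 to 4 in the GABPB1/B2 line, 0 to 1 lower between the GABPA and GABPB1/B2 lines, and 1 to 3 higher between the GABPA and GABPB1 lines. In converted reads it gave 0 to 1 risers at 2 h, 1 to 4 risers and 0 to 1 fallers at 12 h, and 0 to 1 higher at 12 h than at 1 h. In all reads at 12 h it gave 2 to 5 risers and 1 to 2 fallers. The ratio of summed CPM was 1.35 to 1.51 in the GABPB1/B2 line, 1.135 to 1.196 in the GABPB1 line and 1.55 to 1.74 in the GABPA line. For converted reads it lay on both sides of 1 at 1 h (0.982 to 1.41), 2 h (0.969 to 1.78) and 4 h (0.827 to 1.49). At 12 h it was 1.22 to 1.37. The cause was not tested. Each comparison has only 2 pairs, and same-numbered libraries are not stated to share a source, so the replicate block is no paired result. Deviations of same-numbered libraries correlated between −0.0412 and 0.0335 in RNA-seq. In converted reads r was −0.00334 at 1 h, 0.294 at 2 h, 0.128 at 4 h and 0.0964 at 12 h, and in all reads −0.0481, 0.397, 0.297 and 0.133. The block changed no other count by over 1.5 times. Counting H1f10 as a member left the 56 members as they were, since no ID carried that symbol. Depth limits converted reads, where 16 of 56 members could be tested.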
